A study of Mus musculus with 6 samples.

Results

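The cholesterol and fatty acid synthesis genes were a set of 32 genes chosen by symbol for their known roles, with earlier results of these data known. By Ensembl identifier, all 32 were found among the 56940 genes of the files. All 32 were also among the 15407 genes that had enough counts to be tested. RNA was sequenced from mouse lens capsules and the lens epithelial cells attached to them, after the fiber cell mass had been taken out through an anterior cut, as in cataract surgery. The 0 h group and the 72 h group, named for the time since surgery, had 3 libraries each, every library was a pool of 5 capsules, and the surgeries on both eyes of an animal were 72 h apart. All animals were wildtype C57BL/6 per the labels, and both groups had the surgery. RUNX_Cre_N also stands in the description of each of the 6 libraries, and the labels do not explain it. The labels do not say from which animals each pool came, so the p-values reflect only how much the pools vary.

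Cells build cholesterol from acetyl-CoA through mevalonate, farnesyl pyrophosphate, squalene and lanosterol, in a chain of enzymes on the endoplasmic reticulum and in the cytosol. When membrane sterol is low, the escort protein Scap carries the SREBP transcription factors (encoded by Srebf1 and Srebf2) to the Golgi, where they are cut and released to switch on these enzymes. The Insig proteins hold Scap back when sterol is plentiful, and LXR receptors, which sense oxysterols, switch on cholesterol export and Srebf1. Lens fiber cell membranes are known for a very high cholesterol content, and inherited or drug-induced defects of sterol synthesis are known to cause cataract.

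At 72 h, 10 of the 32 genes were higher and 3 were lower, and 19 were not called. A call here is a Benjamini-Hochberg adjusted p under 0.05 in the quasi-likelihood test of edgeR, adjusted over all tested genes. Of all tested genes 38.5% were called, 21.0% higher and 17.5% lower. The share of members called higher was above that background and the share called lower was below it. As the members were chosen with earlier results of these data known, this difference was not tested. With upper quartile normalization the split was 8 higher and 4 lower, beside 2892 higher and 3104 lower among all tested genes. Called changes of at least 2-fold were seen upward in 5 members, against 13.5% of all tested genes, and downward in 2, against 10.4%. The genes that rose were 5 of late sterol enzymes (Ebp, Msmo1, Sqle, Dhcr7, Cyp51), together with Fdps, Idi1 and Hmgcs1 of the mevalonate arm, the citrate-cleaving enzyme gene Acly and the transcription factor gene Srebf2. The genes that fell were Srebf1, Insig1 and Scd2. The median log2 change of the 32 genes was 0.32, beside −0.02 over all tested genes.

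Promoters were read for the members from RefSeq's table of the mouse build GRCm38.p6, in windows of 300 bases that run from 250 bases before to 50 bases after an annotated start. The table held 33 windows for 25 of the 32 genes. It had no window for Abcg1, Fdft1, Fdps, Scd1, Scd2, Sqle and Stard4. The motifs searched on both strands were the core of the sterol regulatory element bound by SREBPs (TCACNCCAC), the E-box (CACGTG), the CCAAT box bound by NF-Y (CCAAT), the GC box bound by Sp1 (GGGCGG) and the DR4 element of LXR (by its name alone, a direct repeat of AGGTCA with 4 bases between). Matches of different motifs shared no bases in the members' windows. The 250 bases before the start are printed here for Hmgcs1, the called gene with a match of the sterol element, and for the called genes with a single window and the largest changes, Ebp, Msmo1 and Acly among those that rose and Insig1 among those that fell. The latter 4 were chosen after their values were seen. Capitals mark motif matches on either strand, and all are written 5′ to 3′ on the gene's strand.
Hmgcs1: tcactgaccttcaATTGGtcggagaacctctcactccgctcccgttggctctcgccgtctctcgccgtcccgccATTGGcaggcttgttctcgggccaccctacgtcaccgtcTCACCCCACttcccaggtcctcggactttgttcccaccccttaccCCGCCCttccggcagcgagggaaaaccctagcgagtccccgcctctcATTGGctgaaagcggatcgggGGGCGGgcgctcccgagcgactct
Ebp: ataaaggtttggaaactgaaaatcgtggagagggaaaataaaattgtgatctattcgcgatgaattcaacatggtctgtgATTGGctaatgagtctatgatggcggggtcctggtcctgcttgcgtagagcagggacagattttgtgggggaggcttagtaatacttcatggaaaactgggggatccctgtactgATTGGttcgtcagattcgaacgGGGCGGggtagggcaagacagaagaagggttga
Msmo1: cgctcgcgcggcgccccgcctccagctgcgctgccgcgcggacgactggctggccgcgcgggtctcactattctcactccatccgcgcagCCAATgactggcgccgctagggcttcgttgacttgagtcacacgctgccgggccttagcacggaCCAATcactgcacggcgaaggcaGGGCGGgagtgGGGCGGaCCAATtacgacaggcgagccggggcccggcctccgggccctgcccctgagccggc
Acly: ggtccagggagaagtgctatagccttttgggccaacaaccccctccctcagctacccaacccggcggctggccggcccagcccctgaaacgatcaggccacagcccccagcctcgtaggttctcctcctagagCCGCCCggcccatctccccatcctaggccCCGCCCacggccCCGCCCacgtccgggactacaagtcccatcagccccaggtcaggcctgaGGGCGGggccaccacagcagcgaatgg
Insig1: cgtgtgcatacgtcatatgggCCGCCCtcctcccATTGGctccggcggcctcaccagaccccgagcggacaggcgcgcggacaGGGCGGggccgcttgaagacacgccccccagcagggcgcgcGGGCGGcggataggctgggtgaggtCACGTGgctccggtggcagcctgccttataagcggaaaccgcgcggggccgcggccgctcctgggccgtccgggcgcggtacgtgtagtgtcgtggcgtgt
These stretches lie at chr13:119690101-119690350 on the plus strand (Hmgcs1), chrX:8193513-8193762 on the minus strand (Ebp), chr8:64733579-64733828 on the minus strand (Msmo1), chr11:100528001-100528250 on the minus strand (Acly) and chr5:28071162-28071411 on the plus strand (Insig1), all in GRCm38.p6.

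In Hmgcs1 the sterol element began 137 bases before the start, between CCAAT boxes read on the minus strand. This core motif was found in the window of no other member and in 1.24% of all 32851 windows in the table. A CCAAT box was found in 20 of the 25 genes with a window, among them all 8 that were called higher, both that were called lower and 10 of 15 that were not called, and in 37.4% of all windows. The CCAAT box of Acly began 37 bases after the start, outside the printed stretch. A GC box was found in 21 of the 25 genes, again including the 8 higher and 2 lower genes and 11 of the 15 that were not called, and in 35.7% of all windows. The E-box was found in 6 genes, of which Dhcr7 was called higher, Insig1 lower and 4 were not called, and in 7.15% of all windows. No member window held the DR4 element, which was in 0.0152% of all windows. Counted per gene, CCAAT boxes were in 41.1% and GC boxes in 38.2% of the 27025 genes in the table. By the same count E-boxes were in 8.09% and the sterol element in 1.44%. The difference in these shares between called and uncalled members was not tested.

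Levels are given as CPM, counts scaled to library sizes that were adjusted by TMM, a normalization for composition, and changes are log2 of 72 h over 0 h with their standard error (SE). Libraries held 11338820 to 12432688 counts in genes at 0 h and 8453450 to 8945397 at 72 h. Of the lens epithelial markers Foxe3, Pax6, Cdh1, Six3, Prox1, Mab21l1, Cryaa, Cryab, Gja1 and Slc2a1, none was at 0 in any group and 7 of 10 were lower at 72 h, their summed level being 79995 to 85239 CPM at 0 h and 11748 to 19966 CPM at 72 h. Cryaa (57828 to 9297 CPM on average) and Cryab (20585 to 2738 CPM) made up most of that sum. Pax6 (684 to 643 CPM), Six3 (165 to 145 CPM) and Slc2a1 (847 to 848 CPM) were not called. All 11 tested lens fiber markers were lower (74321 to 82050 against 6272 to 12044 CPM). Of 16 macrophage and monocyte markers, 13 of 15 tested were higher (33.6 to 51.2 against 228 to 421 CPM summed), with Ly6c2 at 0 in every library. Of 10 neutrophil markers, 3 of 3 tested were higher (1.02 to 2.60 against 61.2 to 106.6 CPM), while Ly6g, Camp, Ngp and Mpo were at 0 in every library. Surface epithelium markers summed to 4545 CPM in 72 h replicate 3, against 5.21 and 100.04 CPM in 72 h replicates 1 and 2 and 17.5 to 44.9 CPM at 0 h. Photoreceptor markers fell for 9 of 10 members (693 to 1702 against 63.9 to 165 CPM), and 0 h replicate 1 held the highest sum. Of 6 fibroblast and mesenchyme markers, Col3a1 (1.27 to 160.0 CPM on average), Dcn (0.947 to 18.6 CPM) and Lum rose, Pdgfra (227 to 77.2 CPM) and Pdgfrb (191 to 95.4 CPM) fell, and Thy1 was not called, while their sum was 389 to 462 CPM at 0 h and 219 to 488 CPM at 72 h. None of 3 tested endothelial markers was called (7.57 to 19.7 against 8.44 to 23.3 CPM summed), and 1 of 5 pigment cell markers, Pmel, fell (30.1 to 67.8 against 17.1 to 63.6 CPM). The part of these other cells in the sterol and lipid results was not tested, and in such bulk samples fewer cells of a type and less RNA per cell cannot be told apart.

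In the mevalonate arm, which makes the isoprenoid building blocks, 3 of 7 genes rose and none fell. Of all tested genes 21.0% rose and 17.5% fell. By an unadjusted p under 0.05 none fell either, and DESeq2 and limma voom gave the same counts of 3 and 0. The count of genes that rose was 1, Fdps, with upper quartile normalization, with library size alone, without any one of the 0 h libraries or without 72 h replicate 1. Fdps, which encodes farnesyl pyrophosphate synthase, was at 35.03, 39.4 and 39.1 CPM in the 0 h libraries and 90.4, 67.6 and 70.8 CPM in the 72 h libraries. Every 72 h library lay above every 0 h library, and the log2 change was 1.01 ± 0.15 (SE; adjusted p = 0.000489). Among all tested genes the groups did not overlap for 53.5%, with 72 h above in 26.5% and below in 26.9%. The corresponding counts among the 32 members were 18, 14 and 4. In the GENCODE annotation of GRCm38, 77.4% of the exon bases of Fdps lie also in Gm43738 on the same strand, which has no row in the files, so how reads there were counted is uncertain.

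Idi1, the isomerase that makes dimethylallyl pyrophosphate, was at 15.1, 12.9 and 11.4 CPM at 0 h and 26.0, 22.3 and 16.3 CPM at 72 h. The groups did not overlap, although 72 h replicate 3 came close to 0 h replicate 1, and the change was 0.71 ± 0.24 with an adjusted p of 0.0416, the called member nearest to the threshold. Hmgcs1, the cytosolic HMG-CoA synthase, was at 107.8, 101.8 and 94.97 CPM at 0 h and 144, 123.4 and 123.3 CPM at 72 h, a small rise of 0.36 ± 0.11 (adjusted p = 0.0251) with no overlap. Both calls were lost without any one of the 3 0 h libraries, without 72 h replicate 1, or with upper quartile or library size normalization. Their adjusted p was then 0.0632 to 0.1251 for Hmgcs1 and 0.0677 to 0.150 for Idi1. The call of Idi1 was also lost without 72 h replicate 2 (adjusted p = 0.0891), and with a block for the sample number (adjusted p = 0.0502).

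The other mevalonate genes were not called. Mvk (mevalonate kinase) averaged 15.1 ± 1.41 CPM at 0 h and 20.3 ± 0.908 CPM 72 h later (SD, n = 3) without overlap of the groups, and its 95% interval of −0.02 to 0.87 log2 units reached 0. Pmvk (phosphomevalonate kinase) had a change of 0.48 with an interval of −0.09 to 1.05. Acat2, the cytosolic acetoacetyl-CoA thiolase, was thinly covered, with 181 counts at 0 h and 197 at 72 h in all. Its values were 4.24, 4.74 and 5.99 CPM at 0 h and 4.75, 6.93 and 11.7 CPM at 72 h, the highest being 72 h replicate 3, and its change of 0.64 became 0.24 without that library. Mvd, which makes isopentenyl pyrophosphate, was at 7.70, 8.30 and 9.07 CPM at 0 h and 8.80, 10.6 and 4.04 CPM at 72 h. The low value was again that of 72 h replicate 3, the library with the high surface epithelium sum, and the change of −0.09 turned to 0.23 without it.

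**Figure D1:**
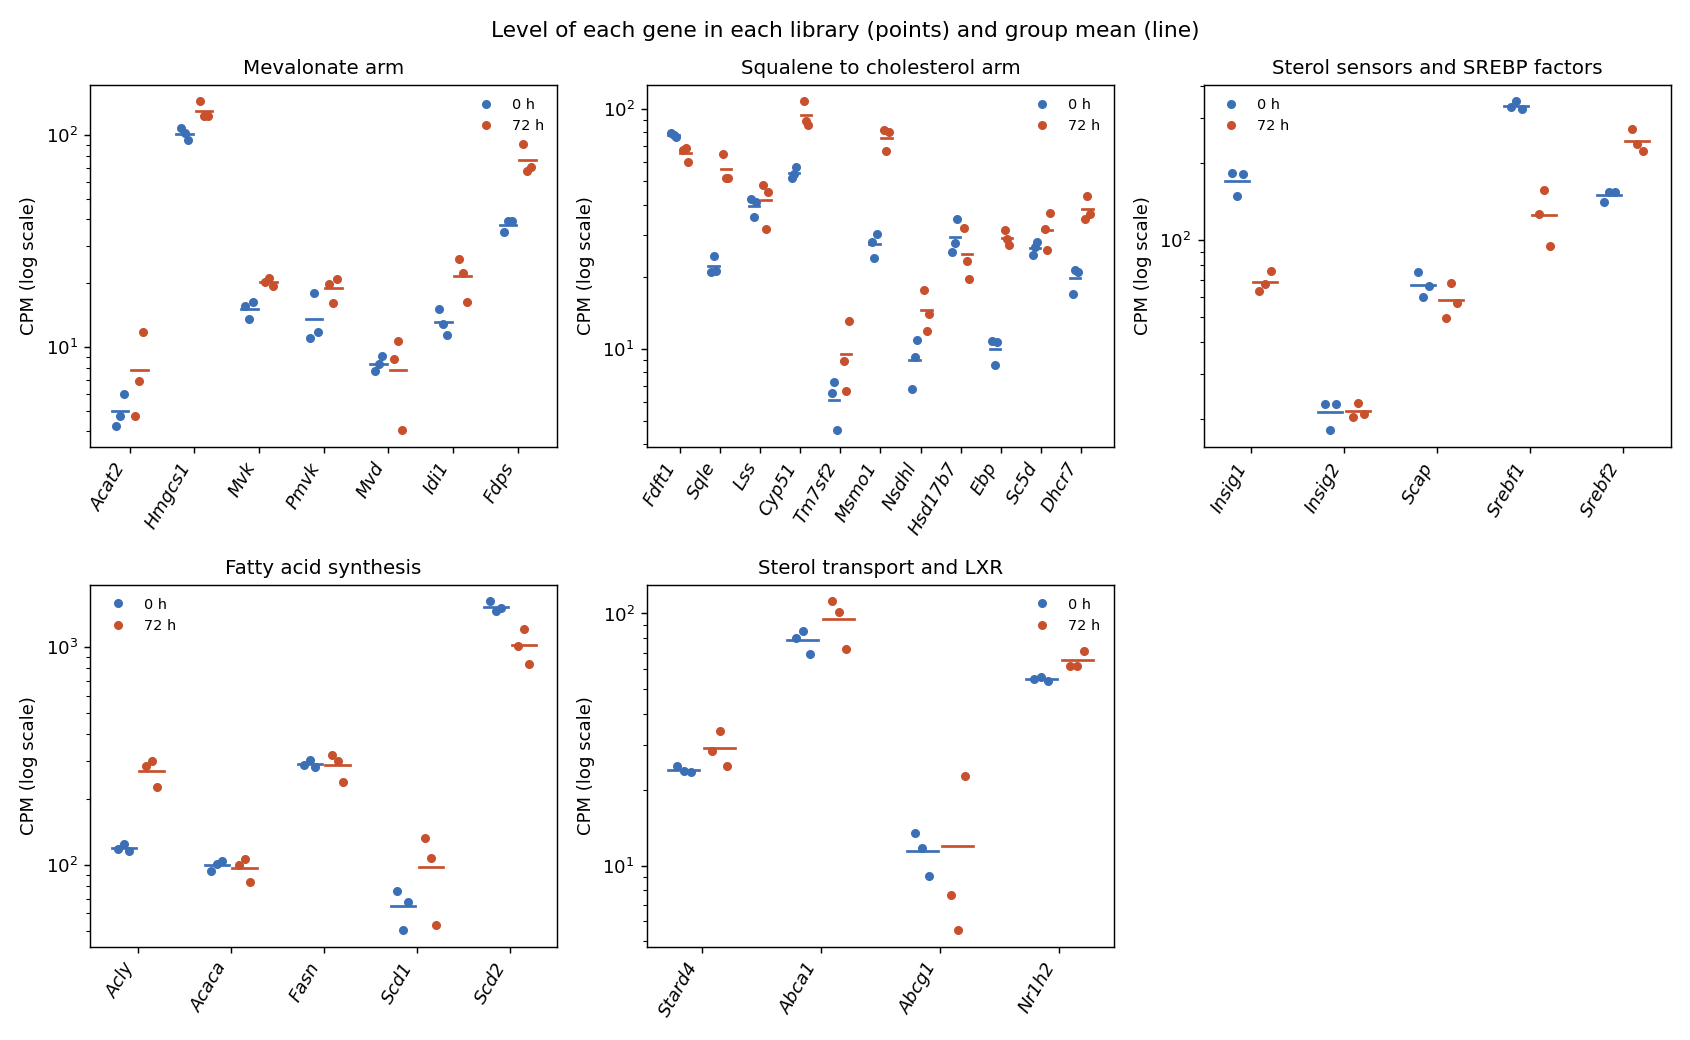
Level of each of the 32 genes in CPM (log axis) in every library, by role, with 0 h in blue, 72 h in red and a line at the mean of each group. The 72 h points of Fdps, Sqle, Cyp51, Msmo1, Ebp, Dhcr7, Srebf2 and Acly lie above all 0 h points, and those of Insig1, Srebf1 and Scd2 lie below them.

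From squalene to cholesterol, 5 of 11 genes rose and none fell, beside 21.0% and 17.5% of all tested genes. By an unadjusted p under 0.05 there was 1 lower gene, Fdft1, and DESeq2 and limma voom called none lower. Ebp, the sterol isomerase known as emopamil binding protein, had the highest rise of the 32 genes. It was at 10.8, 8.55 and 10.6 CPM at 0 h and 31.5, 28.9 and 27.0 CPM at 72 h, a log2 change of 1.54 ± 0.20 (adjusted p = 0.000254). The 3 72 h values lay far above the 3 0 h values, and the change stayed between 1.43 and 1.60 in all 15 alternatives.

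Msmo1, the methylsterol monooxygenase that starts removal of the methyl groups at carbon 4, was at 28.0, 23.9 and 30.1 CPM at 0 h. It reached 81.8, 66.7 and 80.1 CPM at 72 h, a change of 1.48 ± 0.15 (adjusted p = 4.6e-05). Nsdhl, the dehydrogenase that acts next on the same methyl groups, was at 6.83, 9.23 and 10.9 CPM and then 17.6, 11.9 and 13.9 CPM. The groups of Nsdhl did not overlap and its change was 0.69 ± 0.29, but with an adjusted p of 0.0861 it was the uncalled member nearest to the threshold. Hsd17b7, the ketoreductase of the same step, was at 29.2 ± 4.85 and 25.0 ± 6.41 CPM (SD, n = 3) and was not called, with an interval of −0.72 to 0.26. Of these 3 genes, Msmo1 alone was called.

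Sqle, squalene epoxidase and a control point of the chain, rose from 21.0, 24.4 and 21.1 CPM to 65.2, 51.9 and 51.5 CPM (1.34 ± 0.16, adjusted p = 0.000127). Cyp51, the lanosterol demethylase, rose from 51.8, 53.8 and 57.6 CPM to 107.8, 89.6 and 85.8 CPM (0.80 ± 0.13, adjusted p = 0.000814). Dhcr7, which makes cholesterol from its last precursor in one branch of the chain, rose from 17.0, 21.3 and 21.0 CPM to 34.96, 43.3 and 36.4 CPM (0.95 ± 0.17, adjusted p = 0.0019). None of these 3 genes had overlapping groups, and all 3 calls held in all 15 alternatives. Exons of Cyp51 share 4.22% of their bases with Akap9 on the opposite strand, itself higher by 0.34 on the log2 scale, and the strand setting of the counting was not given in the sources used here.

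The genes of the enzymes on either side of squalene epoxidase were not called higher. Fdft1, squalene synthase, was at 79.7, 78.0 and 76.8 CPM at 0 h and 67.6, 68.6 and 60.04 CPM at 72 h. Every 72 h library lay below every 0 h library, yet the change of −0.26 ± 0.11 was not called (adjusted p = 0.10), except with upper quartile normalization (adjusted p = 0.0401). Its exons share 20.9% of their bases with Ctsb on the opposite strand, a cathepsin gene that was called higher by 0.45. Lss, lanosterol synthase, was at 39.6 ± 3.58 and 41.7 ± 8.90 CPM (SD, n = 3), with an interval for its change of −0.33 to 0.48.

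The remaining 2 genes of this arm were not called. Sc5d, the sterol desaturase before Dhcr7, had a change of 0.25 with an interval of −0.15 to 0.65. Tm7sf2, a sterol reductase with an activity that the lamin B receptor also has, was at 6.57, 7.28 and 4.57 CPM and then 8.91, 6.70 and 13.1 CPM, with its highest value in 72 h replicate 3. Its change of 0.64 was 0.36 without that library. Over both arms, 8 of 18 sterol enzymes rose and none fell, beside 21.0% and 17.5% of all tested genes. A positive change was seen in 15 of 18, with a median of 0.64, beside 48.8% of all tested genes. As the genes were chosen with earlier results of these data known, these differences were not tested.

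**Figure D2:**
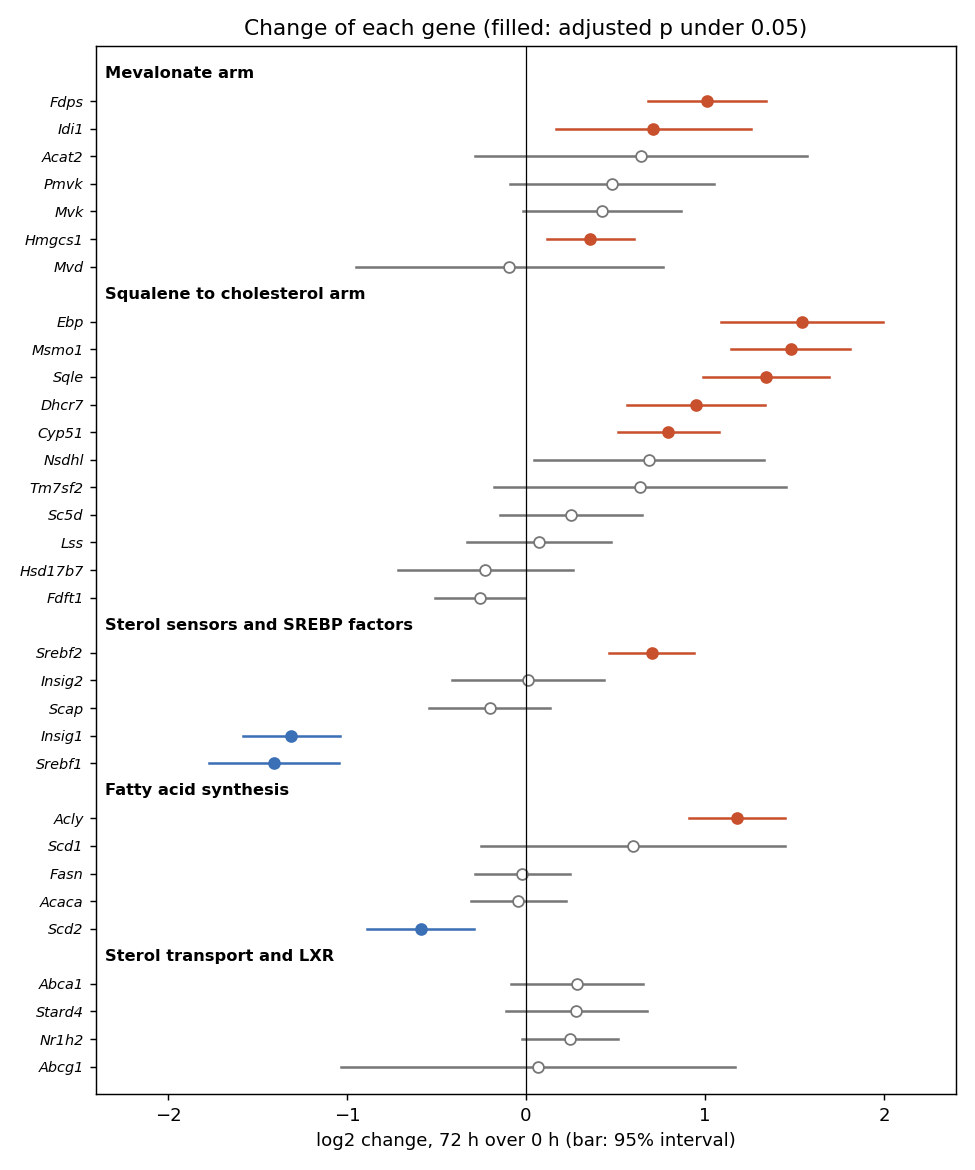
Log2 change from 0 h to 72 h of each gene with its 95% interval, by role, where filled points passed the test (red higher, blue lower) and open points did not. Ebp at 1.54 and Srebf1 at −1.41 are the ends of the range.

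Of the 5 genes of sterol sensors and SREBP factors, Srebf2 rose, Srebf1 and Insig1 fell, and Insig2 and Scap were not called. Srebf1, which encodes SREBP-1, a driver of fatty acid synthesis and itself a target of LXR, was at 331, 348 and 323 CPM at 0 h and 126, 157 and 94.9 CPM at 72 h. All 72 h values lay below all 0 h values, and the fall was the largest of the 32 genes (−1.41 ± 0.16, adjusted p = 0.000115). Srebf2, which encodes SREBP-2, the factor known mainly for the sterol enzymes, was at 140.9, 153.9 and 154.0 CPM and then 271, 237 and 223 CPM. All its 72 h values lay above all 0 h values (0.70 ± 0.11, adjusted p = 0.000601).

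The ratio of Srebf2 to Srebf1 counts within a library does not depend on normalization. It was 0.425, 0.442 and 0.476 at 0 h and 2.15, 1.51 and 2.35 at 72 h, a difference of 2.14 on the log2 scale. The groups did not overlap, and the exact two-sided permutation test gave p = 0.1, the smallest that 3 libraries against 3 allow, also after adjustment over the 4 ratios computed. These 4 ratios were not among the tests planned at the start. For Srebf2 over Srebf1, the separation and its p followed from the levels given above, which moved in opposite directions in every 72 h library. The ratio is not corrected for gene length, so only its shift between the groups can be read. Files of gene counts do not separate the Srebf1 transcripts that start at different promoters. Exons of Srebf1 share 2.54% of their bases with Rai1 on the opposite strand, which was called higher by 0.57.

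Insig1, the sterol sensor that is itself a target of SREBPs, was at 182, 149 and 180.5 CPM at 0 h and 63.2, 67.3 and 75.7 CPM at 72 h. No values overlapped, and the fall of 1.31 on the log2 scale (SE 0.12, adjusted p = 2.7e-05) had the smallest p of the 32 genes. Insig2, the second sensor gene, was at 22.9, 18.0 and 22.9 CPM and then 20.4, 23.1 and 20.9 CPM, with overlapping groups and an interval of −0.41 to 0.44. The ratio of Insig2 to Insig1 counts was 0.126, 0.121 and 0.127 at 0 h and 0.322, 0.343 and 0.276 at 72 h (exact permutation p = 0.1, the smallest possible). It largely restates the fall of Insig1 beside the uncalled Insig2 and is not separate evidence. Scap, the escort of the SREBPs, was at 66.9 ± 7.41 and 58.1 ± 9.18 CPM (SD, n = 3) and was not called (interval −0.54 to 0.13).

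**Figure D3:**
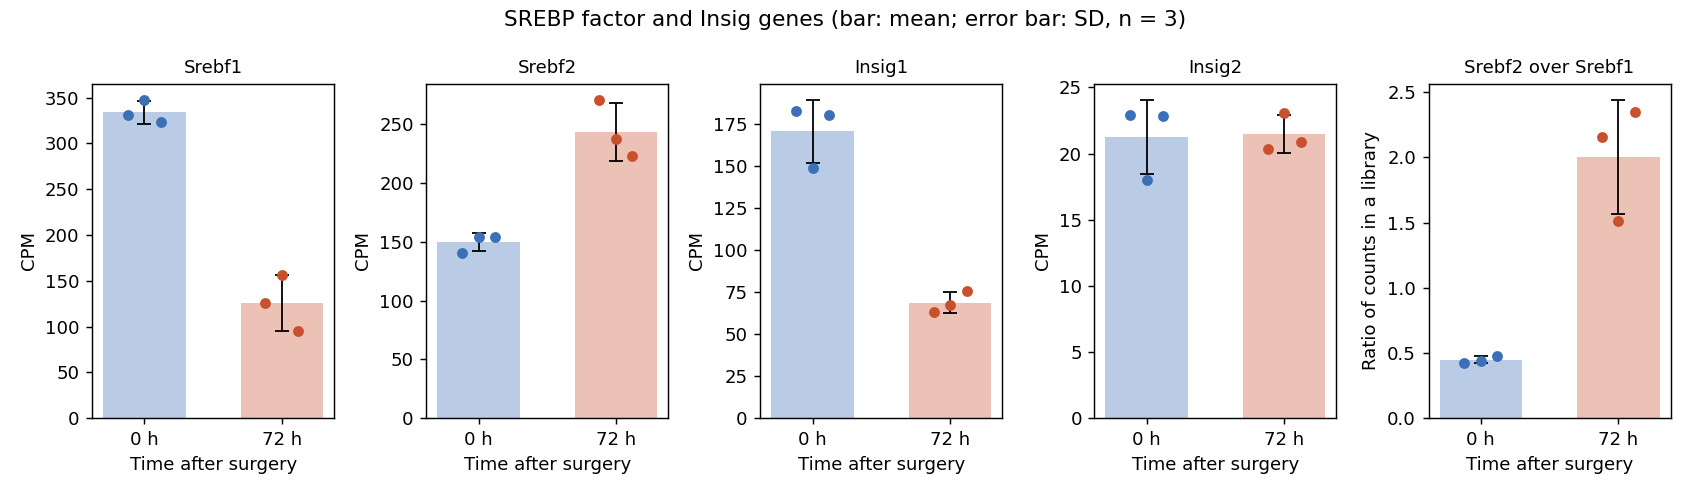
CPM of Srebf1, Srebf2, Insig1 and Insig2 and the ratio of Srebf2 to Srebf1 counts in each library, where bars are means, error bars SD (n = 3) and points libraries. Srebf1 and Insig1 are lower at 72 h, Srebf2 is higher, Insig2 overlaps between the groups, and the ratio is 0.425 to 0.476 in the 0 h libraries but 1.51 to 2.35 in the 72 h libraries.

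Among the 5 genes of fatty acid synthesis, 1 rose and 1 fell, beside 21.0% and 17.5% of all tested genes. Acly, ATP citrate lyase, which supplies cytosolic acetyl-CoA to both pathways, was at 118.1, 124.7 and 116.03 CPM at 0 h and 284, 301 and 228 CPM at 72 h. The groups were far apart and the change was 1.18 ± 0.12 (adjusted p = 5.0e-05). Acaca, acetyl-CoA carboxylase, was at 93.7, 101.3 and 104.7 CPM and then 100.3, 106.5 and 84.0 CPM. Fasn, fatty acid synthase, was at 289, 304 and 281 CPM and then 321, 299.7 and 240 CPM. Both sets overlapped, with intervals of −0.31 to 0.22 for Acaca and −0.29 to 0.24 for Fasn, and neither gene was called. The ratio of Acly to Fasn counts was 0.408, 0.411 and 0.413 at 0 h and 0.887, 1.005 and 0.947 at 72 h (exact permutation p = 0.1, the smallest possible). This unplanned ratio largely restates the rise of Acly beside the uncalled Fasn and is not separate evidence.

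Of the genes of stearoyl-CoA desaturases, which make monounsaturated fatty acids, Scd2 fell and Scd1 was not called. Scd2 was at 1629, 1466 and 1509 CPM at 0 h and 1009, 1218 and 838 CPM at 72 h, with no overlap and a fall of 0.59 on the log2 scale (SE 0.13, adjusted p = 0.00626). Scd1 was at 76.3, 50.3 and 67.4 CPM and then 132.8, 107.4 and 52.8 CPM (0.60 ± 0.35, adjusted p = 0.235). The low value of Scd1 was that of 72 h replicate 3, and without this library the gene was called higher at 0.91 (adjusted p = 0.000833). Reads of these related genes could be split between them in counting. The ratio of Scd1 to Scd2 counts was 0.0468, 0.0343 and 0.0446 at 0 h and 0.132, 0.0882 and 0.0630 at 72 h (exact permutation p = 0.1, the smallest possible). It is built from the levels just given, the fall of Scd2 among them, and is not separate evidence.

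None of the 4 genes of sterol transport and LXR signalling was called by edgeR, DESeq2 or limma voom, and 0 had an unadjusted p under 0.05. Abca1, the exporter of cholesterol to apolipoproteins and an LXR target, was at 80.1, 85.6 and 69.2 CPM at 0 h and 112, 101.5 and 72.5 CPM at 72 h. Its change of 0.29 had an interval of −0.08 to 0.65, and without 72 h replicate 3 it was called higher at 0.46 (adjusted p = 0.00595). Abcg1, the exporter to high-density lipoprotein, was at 13.4, 11.8 and 9.07 CPM and then 7.64, 5.55 and 22.7 CPM. Here 72 h replicate 3 lay above all others and 72 h replicates 1 and 2 below all 0 h libraries, and the change of 0.07 became −0.78 without that library (adjusted p = 0.0710).

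Stard4, a carrier that moves sterol between membranes, was at 24.82, 23.6 and 23.6 CPM at 0 h and 28.4, 34.3 and 24.82 CPM at 72 h, so that its groups all but touched. Nr1h2, which encodes LXR beta, was at 55.2, 55.8 and 54.0 CPM and then 62.2, 62.0 and 71.3 CPM. Every 72 h library of Nr1h2 lay above every 0 h library, and neither gene was called (adjusted p = 0.243 and 0.139). The intervals were −0.11 to 0.68 for Stard4 and −0.02 to 0.51 for Nr1h2.

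**Figure D4:**
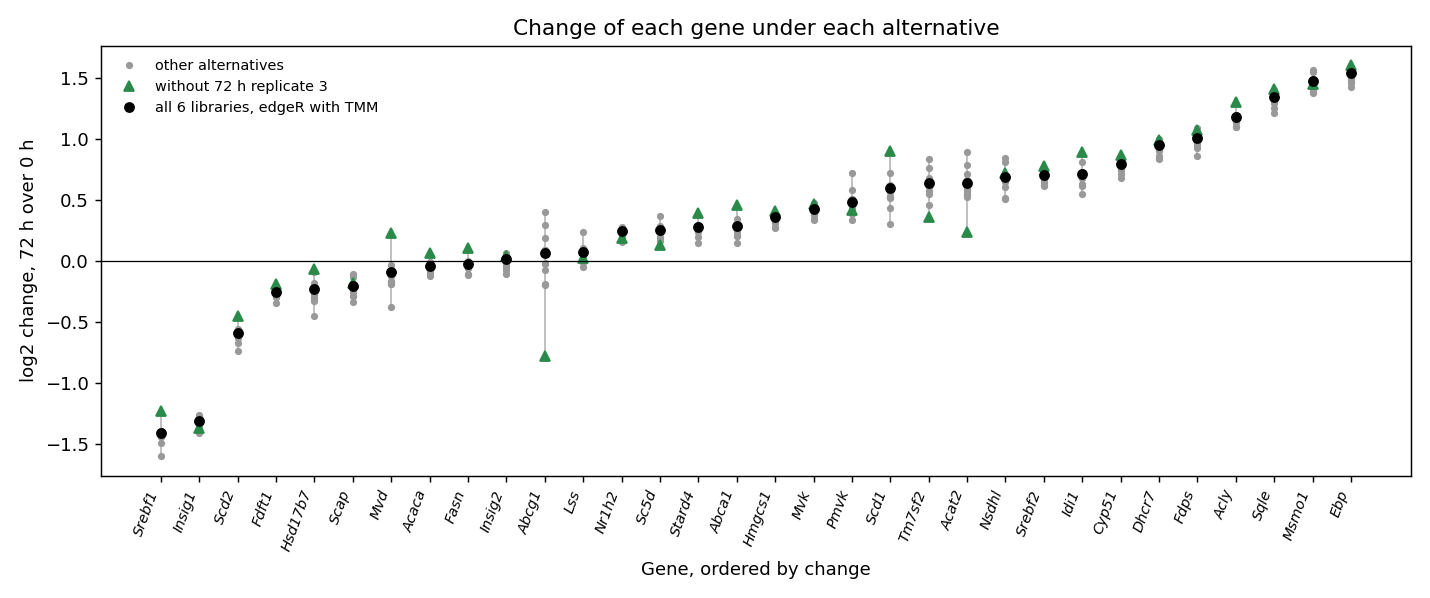
Log2 change of each gene with all 6 libraries (black), without 72 h replicate 3 (green triangles) and under the other 14 alternatives (grey). The triangles of Abcg1, Mvd, Scd1 and Acat2 lie apart from the black points, while those of Srebf2, Acly, Sqle, Msmo1 and Ebp lie near them.

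Further genes of these pathways were taken from 4 lists. Of 14 other genes of sterol synthesis, uptake and storage, 13 were tested, of which 6 rose (46.2%) and 1 fell (7.69%). Among all tested genes these shares were 21.0% and 17.5%, and the difference was not tested. Nceh1, a cholesteryl ester hydrolase, rose by 1.33 ± 0.20, Tmem97, a SREBP target that binds the sterol transporter of lysosomes, by 1.47 ± 0.37, and Npc2, a lysosomal sterol carrier, by 0.43 ± 0.13. These 3 were named after their values were seen. The call of Npc2 was lost in 8 of the alternatives, and that of Tmem97 without 0 h replicate 1 (adjusted p = 0.0540) or 0 h replicate 3 (adjusted p = 0.0548). Acat1, the mitochondrial thiolase of ketone body metabolism, fell by 0.61 on the log2 scale (SE 0.19, adjusted p = 0.0270). Its call was lost without any one of the 0 h libraries or without 72 h replicate 2 (adjusted p = 0.0710 to 0.102).

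Of 9 other genes that handle SREBP and Insig proteins, 1 rose and 1 fell (11.1% each). Both shares were below the 21.0% and 17.5% of all tested genes. Rnf145, a ubiquitin ligase for Scap that is induced by LXR and sterols, went from 99.1 to 193 CPM on average (0.96 ± 0.10, adjusted p = 4.8e-05). Paqr3, a Golgi anchor of Scap and the SREBPs, fell by 1.63 on the log2 scale (SE 0.44, adjusted p = 0.0143), a call lost without 0 h replicate 3 (adjusted p = 0.0853). The count of falls in this list was 2 with upper quartile normalization or without 72 h replicate 2.

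Of 20 other fatty acid genes, 18 were tested, of which 6 rose (33.3%) and 7 fell (38.9%), beside 21.0% and 17.5% of all tested genes. The elongase gene Elovl5 rose by 1.15 ± 0.16 and Hsd17b12, the ketoreductase of the elongation cycle, by 1.13 ± 0.16. Lpin1, the phosphatidate phosphatase lipin 1, fell by 1.84 on the log2 scale (SE 0.23) and Hacd3, a dehydratase of the elongation cycle, by 1.02 (SE 0.16). All 4 had adjusted p-values of 0.000667 or less and kept their calls in every alternative. Without 0 h replicate 1 the counts were 3 and 3, and 2 or 3 genes rose without 0 h replicate 2 or 72 h replicate 1.

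Of 10 other genes of LXR signalling, 1 rose (10%) and 2 fell (20%), beside 21.0% and 17.5% of all tested genes. The lowest adjusted p of an uncalled gene in this list was 0.0559. The count of falls was 3 with DESeq2, limma voom or upper quartile normalization, and without 72 h replicate 2 or 3. It was 1 without any one of the 0 h libraries or without 72 h replicate 1. Arl4c, a small GTPase gene induced by LXR in some cells, rose from 10.1 to 147 CPM on average (3.87 ± 0.12, adjusted p = 3.0e-08). Abcg4, a sterol transporter, fell by 2.10 on the log2 scale (SE 0.54) and the lipoprotein lipase gene Lpl by 0.88 (SE 0.30). The call of Abcg4 was lost without 0 h replicate 1 (adjusted p = 0.0637), and that of Lpl without 0 h replicate 2, 0 h replicate 3, 72 h replicate 1 or 72 h replicate 3 (adjusted p = 0.0820 to 0.161). In these libraries 13 of 15 tested macrophage and monocyte markers were higher at 72 h, and the part of such cells in the changes of this list was not tested.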

How the data were processed

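RNA from 6 libraries of mouse lens capsules was extracted by Qiagen RNeasy, and libraries were made by Takara SMARTer Stranded Pico v2, as the labels' protocols state. The files deposited by the authors hold raw read counts per Ensembl gene, not normalized. Per the submitters' processing notes, HISAT2, HTSeq and edgeR were used with GRCm39. Versions, annotation release and strand setting are not given in the sources used here. The 5 summary lines of reads not counted for any gene, for whatever reason, were left out here. Together they held 44.0% ± 1.82 (0 h) and 49.7% ± 1.86 (72 h) of reads (SD, n = 3). Symbols came from a GENCODE table by identifier (51947 of 56940 matched).

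Genes were kept by filterByExpr (minimum count 10, minimum total 15) and tested for time with edgeR 4.0.16 in R 4.3.3, by TMM and the robust quasi-likelihood test, two-sided, with Benjamini-Hochberg adjustment over 15407 genes. The fold changes use a prior count of 0.125, the standard errors come from the F statistic, and intervals are 95%. The fit was run on simulated data with 200 changed genes. In the real data 5930 genes were called, so that run cannot vouch for the normalization here. The 15 alternatives, with DESeq2 1.42.0 and limma 3.58.1 among them, are given in the closing section. No 2 libraries of a group agreed within sampling noise (chi-square per degree of freedom at least 7.44).

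All 32 members are named. From each further list the rule names the 2 called genes with the smallest p in each direction, and some genes of the sterol list are not reported here. The members and lists were chosen with earlier results of these data known.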

Additional observations from a re-analysis of the deposited data

How the results depend on the processing

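Over the 15 alternatives, 11 of the 13 called genes kept their direction and call. The exceptions were Hmgcs1 and Idi1, as given above. Of the 19 uncalled genes, 16 were never called, and Fdft1 (upper quartile normalization), Scd1 and Abca1 (without 72 h replicate 3) were called in 1 alternative each. The count of members called higher ranged from 8 to 12 without any one library and that of members called lower was 3 in each of these. Over all tested genes, 2511 to 3646 were called higher and 1877 to 3265 lower without any one library. The causes of these shifts were not tested.

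Log2 changes that turned sign were those of uncalled genes. With upper quartile normalization they were −0.012 for Lss, −0.073 for Insig2 and −0.026 for Abcg1, and with library size alone −0.035 for Insig2 and −0.017 for Abcg1. For Abcg1 they were also −0.20 with limma voom and −0.19 with the replicate block. Without any one library the change ranged from −0.38 to 0.23 for Mvd, −0.051 to 0.24 for Lss, −0.11 to 0.064 for Insig2, −0.12 to 0.061 for Acaca, −0.12 to 0.10 for Fasn and −0.78 to 0.41 for Abcg1. The positive values of Mvd, Acaca and Fasn and the value of −0.78 for Abcg1 were those without 72 h replicate 3.

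With the replicate block, the sample number of the labels as a term, 9 members were higher and 3 lower, and 2921 and 2507 of all genes. Same-numbered libraries did not deviate together (correlations of deviations −0.04, 0.06 and −0.01 across genes), which cannot exclude animals shared between the pools. As the labels state no pairing, the numbers were not taken to pair the samples. The changes of Acat2, Mvd, Tm7sf2, Scd1 and Abcg1 had standard errors of 0.35 to 0.49, and the cause of this spread was not tested.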
